A study of Mus musculus with 24 samples.

Results

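The 10 genes that carry the signal of Toll-like receptors inside the cell were followed through the 24 RNA-seq libraries of mouse bone marrow-derived macrophages. They were chosen by name as the 4 adaptors (Myd88, Tirap, Ticam1, Ticam2), the 4 Irak kinases (Irak1, Irak2, Irak3, Irak4), the ubiquitin ligase Traf6 and the kinase Map3k8, which are 10 of the 55357 genes of the count table. All 10 were found there under their symbols, and all 10 passed the filter on low counts. The cells came from wild-type C57BL/6J mice of 8 to 12 weeks, whose femur and tibia marrow was cultured in medium with L929 supernatant as the source of the macrophage growth factor M-CSF. At each of 4 h and 24 h there were 4 groups of 3 libraries, which were untreated cells, cells given 100 nM dexamethasone, cells given 100 ng LPS (the labels name no volume), and cells given both. All groups shared genotype, strain and culture, and nothing in the labels tells whether replicates were different mice or cultures; p-values here therefore rest on the spread among libraries alone, which may be technical. Dexamethasone is a synthetic agonist of the glucocorticoid receptor, and LPS, a component of the outer membrane of Gram-negative bacteria, is the ligand of the receptor Tlr4.

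As background, LPS bound to Tlr4 brings in adaptors through their TIR domains. Tirap places Myd88 at the plasma membrane, and Myd88 then assembles the myddosome, in which Irak4 is joined by Irak1 or Irak2 and passes the signal to Traf6 and from there to NF-kB and the MAP kinases. Ticam2, also called TRAM, carries the internalised receptor to Ticam1, also called TRIF, which leads to interferon regulatory factors. Irak3, also called IRAK-M, is known as a brake on the myddosome in macrophages that have met LPS before. Map3k8, also called Tpl2, is held by the p105 product of Nfkb1 and, once freed, activates the MAP kinase kinases upstream of ERK.

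The stretches upstream of the transcription start are shown for Myd88, Irak2 and Irak3, which rose most among the adaptors and Irak kinases at 4 h of LPS. That of Irak1, which fell and whose window held a motif match, is shown as well. Irak4 fell more (log2 change -0.80 against -0.66), and its stretch is not printed. RefSeq promoter windows on GRCm38.p6, from 250 bases before to 50 after a start, matched 8 of the 10 genes, with 11 windows in all. Only the 250 bases before the start are printed, 5′ to 3′ on the strand of the gene, at chr9:119340019-119340268 (minus strand) for Myd88, chrX:74023919-74024168 (minus) for Irak1, chr6:113638217-113638466 (plus) for Irak2, and chr10:120202131-120202380 and chr10:120201598-120201847 (minus) for the 2 starts of Irak3. Capitals mark a match to a searched motif.
Myd88: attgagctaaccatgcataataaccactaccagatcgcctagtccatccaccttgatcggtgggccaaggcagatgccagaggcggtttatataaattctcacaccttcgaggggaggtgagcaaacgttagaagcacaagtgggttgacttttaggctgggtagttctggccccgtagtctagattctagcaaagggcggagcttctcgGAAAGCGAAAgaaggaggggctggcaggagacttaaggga
Irak1: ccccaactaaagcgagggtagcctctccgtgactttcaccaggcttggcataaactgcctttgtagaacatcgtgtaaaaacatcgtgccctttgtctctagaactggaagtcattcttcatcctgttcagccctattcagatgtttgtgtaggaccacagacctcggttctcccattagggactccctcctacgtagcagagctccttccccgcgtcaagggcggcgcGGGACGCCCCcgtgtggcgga
Irak2: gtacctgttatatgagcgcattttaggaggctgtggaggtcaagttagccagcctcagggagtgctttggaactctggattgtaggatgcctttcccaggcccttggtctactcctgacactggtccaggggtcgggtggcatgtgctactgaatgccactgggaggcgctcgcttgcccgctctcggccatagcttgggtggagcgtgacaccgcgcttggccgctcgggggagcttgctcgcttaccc
Irak3 upstream start: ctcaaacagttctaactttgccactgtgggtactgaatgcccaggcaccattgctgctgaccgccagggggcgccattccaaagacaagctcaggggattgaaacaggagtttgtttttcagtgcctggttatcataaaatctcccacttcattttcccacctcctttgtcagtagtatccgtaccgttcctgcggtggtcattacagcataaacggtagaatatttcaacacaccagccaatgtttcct
Irak3 downstream start: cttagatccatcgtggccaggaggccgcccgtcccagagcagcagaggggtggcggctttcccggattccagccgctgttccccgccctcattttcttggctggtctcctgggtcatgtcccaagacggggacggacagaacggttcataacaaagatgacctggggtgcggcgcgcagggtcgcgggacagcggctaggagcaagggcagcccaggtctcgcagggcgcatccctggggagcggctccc
Both strands of each window were searched for the NF-kB consensus, the core GAAANNGAAA of the interferon-stimulated response element, the AP-1 site TGANTCA and the glucocorticoid response element core GNACANNNTGTNC. The Myd88 window held 1 interferon-type core, from 40 to 31 bases before the start, where 3.43% of all 32817 windows hold one. The Irak1 window, 1 of 2 that start 3 bases apart, held 1 NF-kB match, from 21 to 12 bases before the start, and 8.46% of all windows hold one. No match overlapped another motif. The windows of Irak2, Irak3, Irak4, Ticam1, Tirap and Traf6 held none of the 4, which says only that these letters are not in these stretches. AP-1 sites occur in 7.81% and glucocorticoid response element cores in 0.475% of all windows.

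Library totals ran from 18326206 to 27908164 counts. TMM scaling factors, which correct for differences in RNA makeup, were lowest with LPS at 4 h (0.679 to 0.705) and next lowest with both agents at 4 h (0.790 to 0.823), against 0.978 to 1.18 in all other groups. With scaling by library size alone the median of all genes moved by -0.769 on the log2 scale in LPS against untreated at 4 h, and changes below are relative to the TMM scale. Libraries of a group correlated at 0.986 or above. All 8 macrophage markers, Lyz2 and Csf1r among them, were expressed, with a summed level of 16736 to 52334 CPM (counts per 1000000 counts of the library after TMM scaling). Lyz2 made up most of the sum, with a mean of 12115 of 18037 CPM in untreated cells at 4 h. With LPS at 24 h 6 of the 8 were called higher and 1, Cd68, lower (1185 to 345 CPM), where 60.4% of all genes were called. The dexamethasone response genes Fkbp5, Tsc22d3, Per1, Klf9 and Zbtb16 rose with dexamethasone in all 4 settings, which checks those labels.

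Markers of other cells were low but moved with the treatments. The summed neutrophil markers (7 of 8 tested) were 41.8 to 61.2 CPM in untreated and 117 to 163 CPM in LPS-treated cells at 4 h, with S100a9 and S100a8 leading and the defining marker Ly6g at 0 in the untreated group. With both agents at 4 h they were 80.6 to 125 CPM, and at 24 h they were at most 23.4 CPM in any group. The stromal and endothelial list (4 of 6 tested) ran from 2.86 to 3.75 CPM untreated, 45.7 to 51.4 CPM with LPS and 92.7 to 105 CPM with both agents at 4 h, nearly all of it Pdgfrb, while the group means of Col1a1 and Col1a2 stayed below 1 CPM. Dendritic cell markers reached 30.3 to 41.3 CPM with LPS at 4 h against 4.23 to 6.46 CPM untreated. Most of that was Ccr7 (mean 20.4 CPM) and Xcr1 (9.87 CPM), while group means of Zbtb46 and Cd209a stayed below 1 CPM. With dexamethasone alone at 4 h the sum was 16.3 to 17.2 CPM, nearly all of it Flt3 (mean 15.1 CPM). Mast cell and basophil markers were at most 11.6 CPM in any library, and none of the 6 lymphocyte markers passed the filter. The part of these cells in the results below was not tested, and in bulk RNA fewer cells of a type cannot be told from less RNA per cell.

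Per kilobase of summed exon length, Irak1 and Myd88 were the highest of the 10 genes in untreated cells. At 4 h they stood at 33.8 ± 0.391 and 25.5 ± 0.443 CPM per kb (SD, n = 3), ahead of Irak4 (9.12 ± 0.707) and Irak2 (8.96 ± 0.189), which did not differ beyond their spread. Ticam2 (2.39 ± 0.583) and Map3k8 (2.30 ± 0.429) were the lowest and likewise did not differ beyond their spread. Exon bases shared with another gene count in the length although reads there were left out, which lowers levels per kb. The shared part was largest for Ticam2 (14.5% with Tmed7) and Myd88 (11.3% with Acaa1a). With LPS at 4 h the order was Myd88 (235 ± 12.5), Irak3 (86.5 ± 4.57), Irak2 (76.1 ± 5.37) and Map3k8 (51.9 ± 2.36), and Irak4 (5.23 ± 0.536) came last beside Ticam2 (5.67 ± 0.5997). At 24 h of LPS Irak3 led at 88.1 ± 2.56 CPM per kb, above Myd88 at 49.5 ± 1.25.

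**Figure D1:**
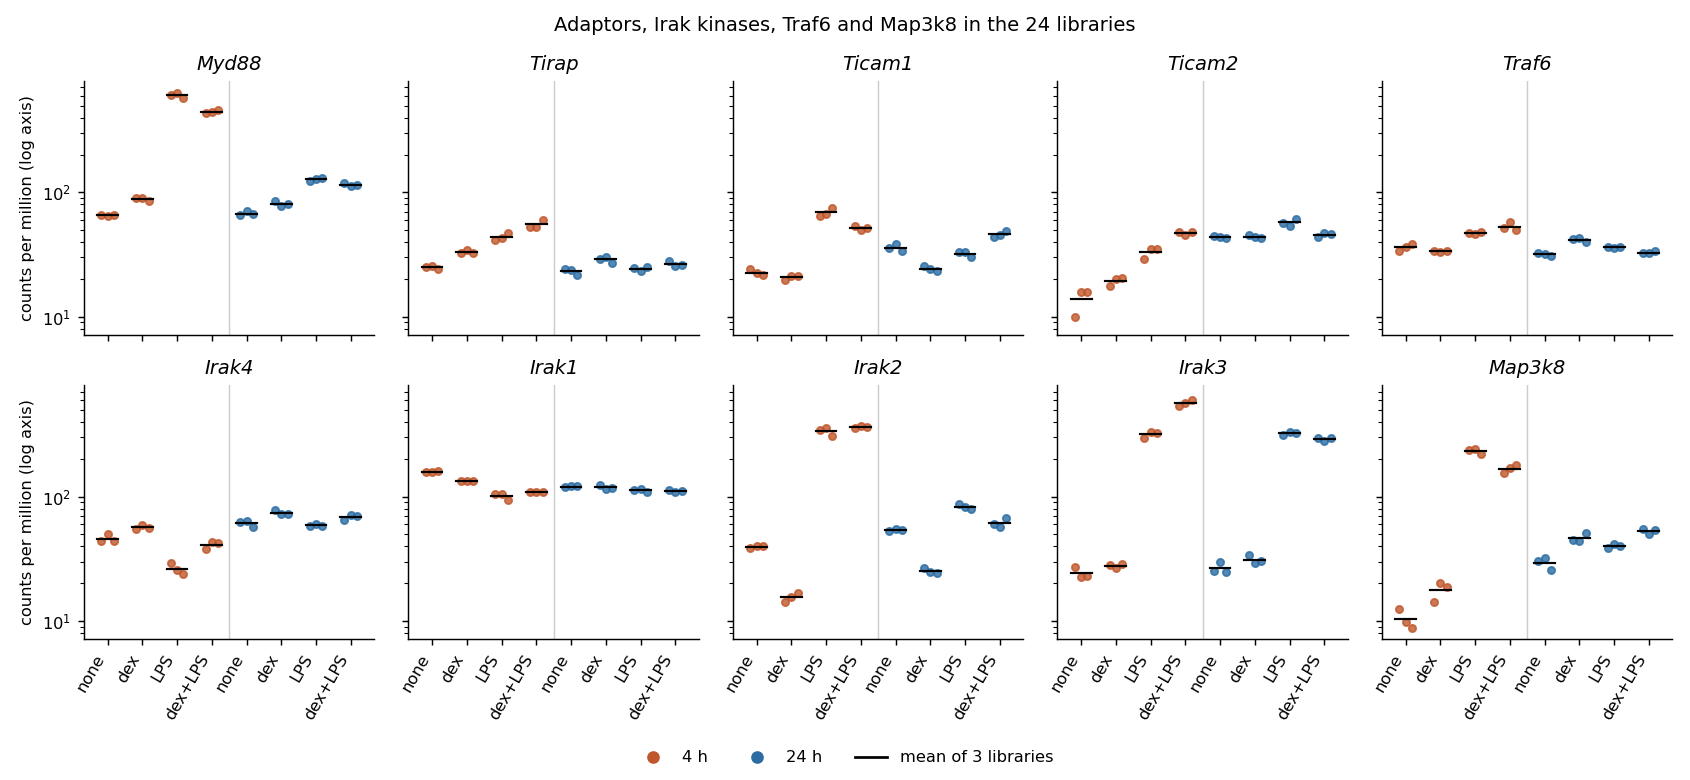
CPM (scaled by TMM, log axis) of the 10 genes in each of the 24 libraries, by treatment (none, dexamethasone as dex, LPS, both) at 4 h (orange) and 24 h (blue); points are libraries and bars the mean of 3. Irak3 stays near its 4 h LPS level at 24 h (324 against 318 CPM), while Myd88, Irak2 and Map3k8 are lower at 24 h of LPS than at 4 h.

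LPS at 4 h changed all 10 genes, with 8 higher and 2 lower at an adjusted p under 0.05. In that comparison 72.9% of all 14985 tested genes were called, so that the number called says little about these genes. Their median change was 1.44 on the log2 scale against -0.07 over all tested genes, and 6 of the 10 changed at least 2-fold, against 39.2% of all genes. At 24 h 6 were higher, 1 was lower and 3 were not called, where 60.4% of all genes were called, and the median change was 0.29 against -0.02.

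Among the adaptors, Myd88 (chr9:119165000-119170477, GRCm39 as in the table), the shared adaptor of nearly all Toll-like receptors and of the interleukin 1 receptor family, rose most with LPS. Its levels were 66.3, 64.3 and 66.3 CPM in the untreated libraries and 609, 636 and 572 CPM in the LPS libraries at 4 h. The groups stood far apart, a 9.23-fold rise (log2 change 3.21 ± 0.05 SE, edgeR adjusted p = 2.1e-34). At 24 h the untreated libraries held 65.9, 70.2 and 66.4 CPM and the LPS libraries 124, 128 and 131 CPM, still without overlap (1.89-fold, edgeR adjusted p = 7.4e-18). The LPS effect was smaller at 24 h than at 4 h on the log2 scale, with a difference of -2.29 ± 0.07 (edgeR adjusted p = 3.7e-25).

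Dexamethasone alone raised Myd88, to 89.8, 90.3 and 85.6 CPM at 4 h (1.35-fold, edgeR adjusted p = 9.6e-09) and to 85.9, 77.1 and 80.0 CPM at 24 h (1.199-fold, edgeR adjusted p = 6.2e-05). Under LPS it lowered the same gene, to 434, 444 and 461 CPM at 4 h, all below the 3 LPS libraries. That was a change of -0.44 ± 0.05 on the log2 scale (edgeR adjusted p = 9.2e-10). The dexamethasone effects with and without LPS differed by -0.87 ± 0.07 at 4 h and by -0.41 ± 0.07 at 24 h (edgeR adjusted p = 1.4e-12 and 1.5e-05). At 24 h under LPS the libraries with dexamethasone held 118, 113 and 114 CPM against 124 to 131 CPM without it, a fall by 0.15 ± 0.05 (edgeR adjusted p = 0.014). This last call was lost without LPS 24 h replicate 3 (edgeR adjusted p = 0.063) and without replicate 2 or 3 of dexamethasone plus LPS at 24 h (0.059 and 0.058). Myd88 and Acaa1a, on the opposite strand, share 290 exon bases, 11.3% of the exon length of Myd88, and reads there cannot be assigned without strand.

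Ticam1 (chr17:56576319-56583786), the TRIF adaptor of Tlr3 and Tlr4, answered dexamethasone in opposite directions at the 2 times under LPS. LPS took it at 4 h from 24.2, 22.2 and 21.4 CPM to 64.4, 67.5 and 75.4 CPM (3.04-fold, edgeR adjusted p = 3.8e-21). With both agents at 4 h it stood at 53.8, 50.01 and 51.9 CPM, below every LPS library (log2 change -0.41 ± 0.07, edgeR adjusted p = 4.9e-06). At 24 h it was 32.8, 32.9 and 30.3 CPM with LPS and 43.8, 45.3 and 49.0 CPM with both, and here every library with dexamethasone was the higher (0.52 ± 0.07, edgeR adjusted p = 1.4e-07). The difference between these effects was 0.94 ± 0.10 (edgeR adjusted p = 1.1e-09).

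Without LPS, dexamethasone lowered Ticam1 at 24 h, from 35.5, 38.2 and 33.8 CPM to 25.3, 24.3 and 23.3 CPM (log2 change -0.56 ± 0.07, edgeR adjusted p = 4e-08). The 24 h effects with and without LPS therefore had opposite signs and differed by 1.09 ± 0.10 (edgeR adjusted p = 4.6e-11). At 4 h without LPS the change was -0.13 ± 0.08 and was not called (edgeR adjusted p = 0.18). The small fall with LPS at 24 h (-0.16 ± 0.07, edgeR adjusted p = 0.048) lost its call when any of 17 of the 24 libraries was left out, with -0.115 at the smallest, without untreated 24 h replicate 2.

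Ticam2, the TRAM adaptor that links Tlr4 to Ticam1, rose with LPS at 4 h from 9.96, 15.9 and 15.7 CPM to 28.9, 34.99 and 34.8 CPM (2.41-fold, edgeR adjusted p = 4.6e-12). Replicate 1 of the untreated 4 h group was the low one. Time alone moved it more, since untreated cells at 24 h held 44.6, 43.8 and 42.7 CPM, 3.21-fold above 4 h (edgeR adjusted p = 6e-15). Dexamethasone raised it at 4 h both without LPS (17.7, 19.99 and 20.6 CPM, 1.43-fold, edgeR adjusted p = 0.00033) and under LPS (47.8, 45.1 and 48.0 CPM, 1.43-fold, edgeR adjusted p = 6.3e-05), and these effects differed by 0.00 ± 0.15. Without untreated 4 h replicate 1 the rise without LPS was 0.301 on the log2 scale in place of 0.51, and it was still called. At 24 h LPS gave 56.7, 54.0 and 61.5 CPM and both agents 44.0, 46.9 and 46.2 CPM, a fall by 0.33 ± 0.10 (edgeR adjusted p = 0.0055). Ticam2 shares 838 exon bases, 14.5% of its exon length, with Tmed7 on the same strand.

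Tirap (chr9:35095847-35111587), which sorts Myd88 to the membrane, moved less. At 4 h it went from 24.1 to 25.3 CPM untreated to 41.5 to 46.8 CPM with LPS (1.75-fold, edgeR adjusted p = 1.6e-12). Scaling by library size alone reduced that change to 0.041 on the log2 scale, with the call lost (edgeR adjusted p = 0.61). Dexamethasone raised Tirap at 4 h without LPS (32.2 to 34.1 CPM, 1.33-fold, edgeR adjusted p = 1.5e-05) and under LPS (52.9 to 59.99 CPM, 1.27-fold, edgeR adjusted p = 9.3e-05). At 24 h it raised it without LPS (1.24-fold, edgeR adjusted p = 0.00052), and under LPS the change was 0.12 ± 0.08 and was not called.

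The kinases split into those that fell and those that rose with LPS. Irak4 (chr15:94441524-94479696), the kinase that starts the myddosome, fell at 4 h from 43.8, 49.9 and 43.7 CPM to 29.2, 25.7 and 23.9 CPM (1.74-fold lower, edgeR adjusted p = 4.7e-12). Dexamethasone raised it in all 4 settings, each time without overlap of the groups. With LPS at 4 h the libraries given dexamethasone as well held 37.9, 43.2 and 42.1 CPM (log2 change 0.64 ± 0.08, edgeR adjusted p = 5.7e-09). The other rises were by 0.31 ± 0.07 without LPS at 4 h, 0.28 ± 0.07 without LPS at 24 h and 0.22 ± 0.07 under LPS at 24 h (edgeR adjusted p = 0.00031, 0.00055 and 0.0076). With LPS at 24 h Irak4 stood at 58.1, 59.7 and 58.3 CPM, overlapping the untreated 57.1 to 63.8 CPM. With scaling by library size alone it was called lower there (-0.262, edgeR adjusted p = 0.00068). Irak4 and Twf1, on the opposite strand, share 395 exon bases, 7.87% of the exon length of Irak4.

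Irak1 (chrX:73057520-73067524), the main partner of Irak4 in resting cells, had the narrowest range of the 10 genes over the 8 group means, 0.66 on the log2 scale. LPS lowered it at 4 h from 158, 159 and 161 CPM to 105, 104 and 94.1 CPM (1.58-fold lower, edgeR adjusted p = 5.5e-15). Dexamethasone alone lowered it to 133 to 135 CPM (-0.25 ± 0.05, edgeR adjusted p = 3.1e-05). At 24 h its 12 libraries lay between 109 and 124 CPM in all 4 groups, and none of the 3 treatment comparisons called it. The LPS libraries at 24 h (110 to 114 CPM) lay below the untreated ones (119 to 121 CPM), at -0.10 ± 0.05 (edgeR adjusted p = 0.073). With scaling by library size alone that change was -0.298 and was called (edgeR adjusted p = 3.2e-07). Dexamethasone under LPS at 4 h gave 109 CPM in each library against 94.1 to 105 CPM (0.11 ± 0.05, edgeR adjusted p = 0.052). That missed the threshold, and it passed in 8 of 24 fits with 1 library left out, for example without LPS 4 h replicate 1 (0.140, edgeR adjusted p = 0.034). It also passed with a stricter filter (edgeR adjusted p = 0.047) and with scaling by library size alone, where it was 0.335 (8e-08).

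Irak2 (chr6:113615428-113671987), the partner of Irak4 tied to prolonged signalling, was lowered by dexamethasone alone and not called changed under LPS at 4 h. Untreated cells held 38.6, 39.8 and 40.2 CPM at 4 h and dexamethasone-treated cells 14.2, 15.6 and 16.8 CPM, 2.54-fold lower (edgeR adjusted p = 4.4e-18). LPS raised Irak2 to 342, 355 and 309 CPM (8.50-fold, edgeR adjusted p = 8.4e-32). With both agents the libraries held 354, 369 and 362 CPM, overlapping LPS alone.

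The dexamethasone change of Irak2 under LPS at 4 h was 0.11 ± 0.06 (edgeR adjusted p = 0.11). It passed the threshold without LPS 4 h replicate 2 (0.155, edgeR adjusted p = 0.039), with only the 2 groups in the fit (0.145, 0.049) and with scaling by library size alone (0.331, 2.9e-06). The dexamethasone effects with and without LPS differed at 4 h by 1.45 ± 0.09 (edgeR adjusted p = 1.5e-15), the widest such difference among the 10 genes. At 24 h dexamethasone lowered Irak2 in both settings. Without LPS it went from 52.8, 55.3 and 53.4 CPM to 26.8, 24.9 and 24.2 CPM (2.13-fold lower, edgeR adjusted p = 1.9e-16). Under LPS it went from 86.7, 82.4 and 80.1 CPM to 60.2, 56.6 and 67.4 CPM (1.35-fold lower, edgeR adjusted p = 2.3e-07).

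Irak3 (chr10:119977553-120038035), the inhibitory member, was raised by LPS at both times. Untreated libraries held 27.1, 22.7 and 22.8 CPM at 4 h and 24.995, 29.9996 and 24.7 CPM at 24 h. LPS libraries held 299, 331 and 324 CPM at 4 h and 315, 334 and 323 CPM at 24 h, more than 10 times the untreated libraries at each time. The rises were 13.1-fold (log2 change 3.71 ± 0.07) and 12.2-fold (3.61 ± 0.07; edgeR adjusted p = 2e-32 and 2.7e-31). The difference between the times was -0.10 ± 0.10 and was not called (edgeR adjusted p = 0.38), but with scaling by library size alone it was 0.467 and was called (2.5e-05).

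Of the 10 genes, the other 9 were called in that difference of the LPS effect between the times, where 61.3% of all genes were called. With scaling by library size alone the calls of Ticam2 (-0.303, edgeR adjusted p = 0.075) and Tirap (-0.173, edgeR adjusted p = 0.14) were lost, and Traf6, at -0.21 with TMM, turned to 0.357 (edgeR adjusted p = 0.001). The Traf6 call was also lost in 17 of 24 fits with 1 library left out. Dexamethasone took Irak3 under LPS at 4 h to 541, 570.1 and 603 CPM, above every library with LPS alone (1.80-fold, log2 change 0.85 ± 0.06, edgeR adjusted p = 3.5e-14). Without LPS the values were 28.1, 26.8 and 28.7 CPM at 4 h, overlapping the untreated libraries (1.15-fold, edgeR adjusted p = 0.035), and 33.7, 29.1 and 30.4 CPM at 24 h, overlapping as well (1.17-fold, edgeR adjusted p = 0.012). The 4 h effects with and without LPS differed by 0.65 ± 0.10 (edgeR adjusted p = 1e-06).

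At 24 h under LPS the dexamethasone libraries held 297, 283 and 296 CPM of Irak3, below the 315 to 334 CPM of LPS alone by 0.15 ± 0.06 (edgeR adjusted p = 0.047). That call was lost in 12 of 24 fits with 1 library left out, with edgeR adjusted p up to 0.16, with RLE size factors in place of TMM (0.096) and with DESeq2 (DESeq2 adjusted p = 0.11). The dexamethasone effect under LPS differed between 24 h and 4 h by -0.996 ± 0.09 (edgeR adjusted p = 9.3e-12). The 2 small rises without LPS were each lost when 1 of several libraries was left out, namely untreated replicate 2 or 3 and dexamethasone replicate 1 or 3 at 4 h, and untreated or dexamethasone replicate 1 and untreated replicate 3 at 24 h (edgeR adjusted p from 0.079 to 0.16). Irak3 and Tmbim4, on the opposite strand, share 192 exon bases, 5.22% of the exon length of Irak3.

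**Figure D2:**
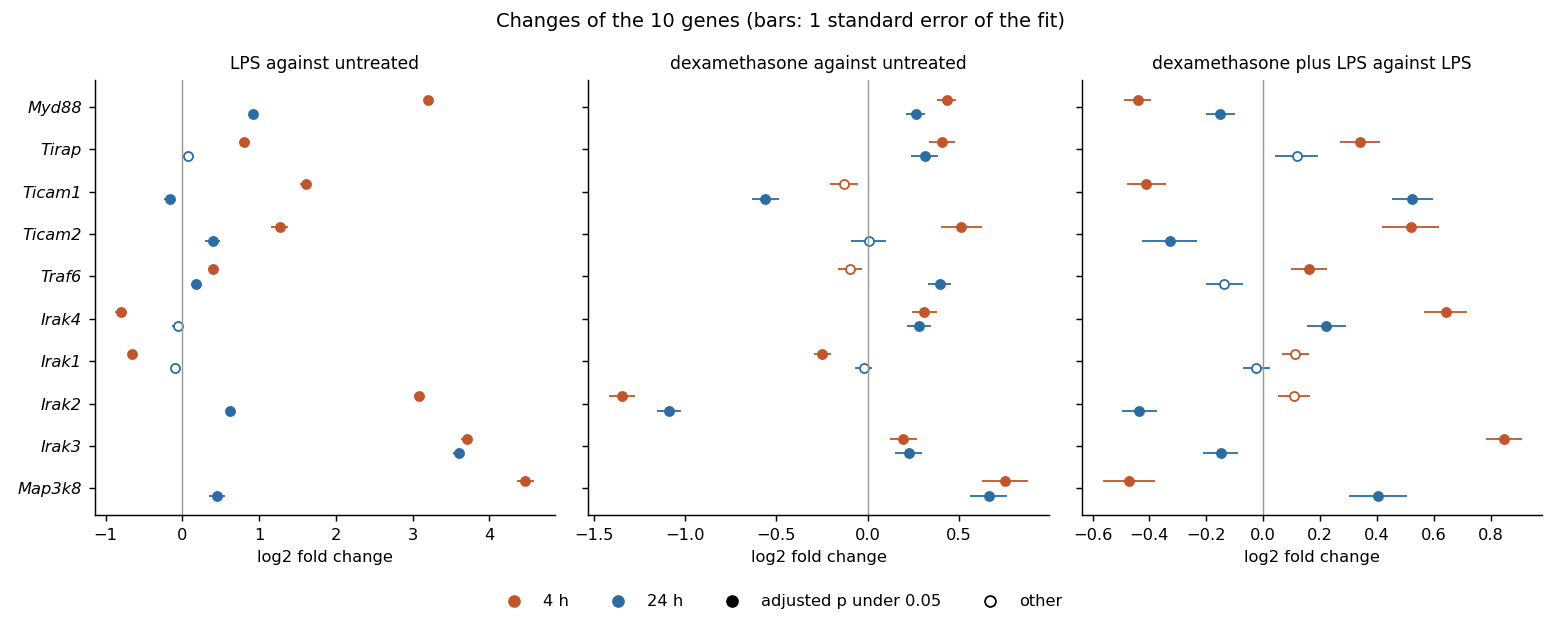
Log2 fold change of each gene (points, with bars of 1 standard error of the fit) by LPS, by dexamethasone without LPS and by dexamethasone under LPS, at 4 h (orange) and 24 h (blue), with filled points at an adjusted p under 0.05. The axes differ between panels, and Ticam1, Ticam2, Irak3 and Map3k8 were called in opposite directions at the 2 times in the right panel.

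The makeup of the Irak kinases shifted with LPS away from Irak1, to Irak2 and Irak3 at 4 h and to Irak3 at 24 h. Shares are of the summed CPM per kb of the 4 kinases. In untreated cells at 4 h Irak1 held 57.8 ± 0.832%, Irak2 15.3 ± 0.320% and Irak3 11.3 ± 1.19%, and the sum was 58.4 ± 0.331 CPM per kb. With LPS at 4 h Irak1 held 11.3 ± 0.495%, Irak2 40.2 ± 1.65% and Irak3 45.7 ± 2.33% of a sum of 189 ± 7.72 CPM per kb. Both agents at 4 h gave Irak3 57.8 ± 1.10% of a sum of 269 ± 9.78 CPM per kb, and LPS at 24 h gave it 61.8 ± 0.896% of 143 ± 2.73 CPM per kb. In untreated cells at 24 h Irak3 held 12.6 ± 1.02%. Irak1 held 44.7 ± 1.17% untreated and 16.7 ± 0.291% with LPS at 24 h.

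Set against Irak4, Irak3 per kb was 0.622 to 0.844 times its level in untreated cells at 4 h and 13.999 to 18.5 times with LPS. With both agents at 4 h the ratio was 18.01 to 19.6, overlapping LPS alone, and dexamethasone raised both genes there. At 24 h it was 7.42 to 7.64 with LPS and 5.44 to 6.26 with both, and these did not overlap. These ratios compare levels per kilobase within a library and do not depend on its scaling.

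Among the adaptors Myd88 held 63.0 ± 0.841% of the summed level in untreated cells at 4 h and 86.2 ± 1.45% with LPS. Ticam1 and Ticam2 each made up more of the sum in untreated cells at 24 h, with 23.7 ± 0.632% and 14.97 ± 0.495%, than at 4 h, with 18.7 ± 1.13% and 5.91 ± 1.46%. With both agents at 24 h Ticam1 held 19.9 to 22.2%, against 13.2 to 14.8% with LPS alone.

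**Figure D3:**
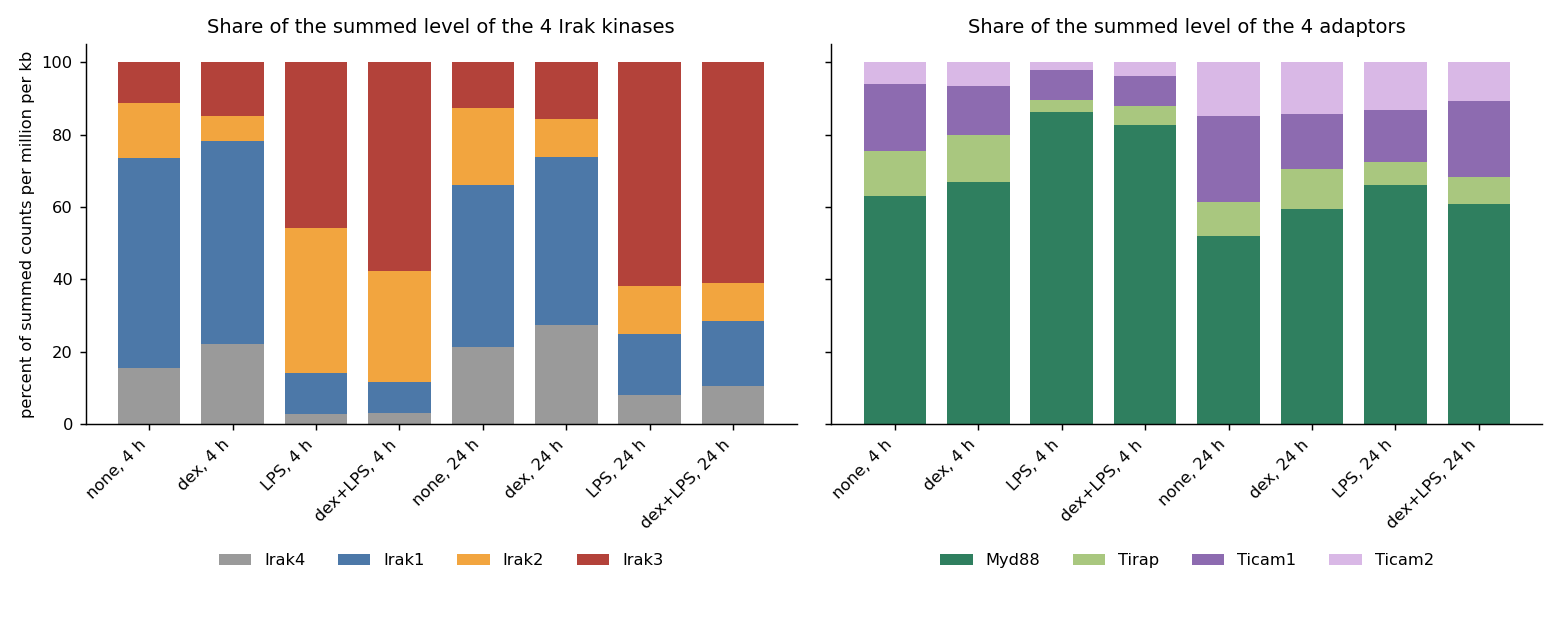
Mean share (percent, 3 libraries per group) of each Irak kinase (left) and each adaptor (right) in the summed CPM per kb of its set, for the 8 groups (dex is dexamethasone). Irak3 rises from 11.3% of the kinases in untreated cells at 4 h to 45.7% with LPS and 57.8% with both agents, and Myd88 from 63.0% to 86.2% of the adaptors with LPS.

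Traf6 (chr2:101508774-101532014), the ubiquitin ligase that the Irak kinases act on, changed by less than 1.4-fold in every treatment comparison. It went from 33.4, 36.5 and 38.2 CPM to 47.4, 46.2 and 48.3 CPM with LPS at 4 h (1.32-fold, edgeR adjusted p = 1e-06). With scaling by library size alone that change had the opposite sign (-0.374, edgeR adjusted p = 3.6e-06), so that its direction at 4 h depends on the scaling. Dexamethasone alone raised Traf6 at 24 h from 30.9 to 32.2 CPM to 39.9 to 43.0 CPM (1.31-fold, edgeR adjusted p = 2.9e-06), and the effect differed from that at 4 h, where it was -0.10 ± 0.06, by 0.49 ± 0.09 (edgeR adjusted p = 5e-05). Under LPS its changes were 0.16 ± 0.06 at 4 h (edgeR adjusted p = 0.035) and -0.14 ± 0.07 at 24 h (0.093). The 4 h call was lost without LPS 4 h replicate 1 or 2 and without replicate 2 of both agents, with edgeR adjusted p of 0.062, 0.092 and 0.22. It was lost as well with RLE size factors (0.08), DESeq2 (0.075) and no filter (0.064). The rise with LPS at 24 h (0.18 ± 0.07, edgeR adjusted p = 0.015) was lost without untreated 24 h replicate 3 (0.059) and had the opposite sign with scaling by library size alone (-0.017).

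Map3k8, the kinase that links the pathway to ERK, had the largest LPS change of the 10 genes at 4 h. It went from 12.5, 9.77 and 8.79 CPM to 236, 243 and 222 CPM (22.2-fold, log2 change 4.47 ± 0.11, edgeR adjusted p = 5.8e-22). At 24 h the untreated libraries held 30.3, 32.3 and 25.5 CPM and the LPS libraries 38.9, 41.3 and 40.3 CPM, a rise of 1.36-fold (edgeR adjusted p = 0.00065). The LPS effect thus differed between the times by -4.02 ± 0.15 (edgeR adjusted p = 1.2e-17), and untreated cells themselves rose 2.79-fold from 4 h to 24 h (edgeR adjusted p = 6.1e-11).

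Dexamethasone raised Map3k8 without LPS, to 14.2, 19.99 and 18.8 CPM at 4 h (1.68-fold, edgeR adjusted p = 2.2e-05) and to 45.1, 43.6 and 50.9 CPM at 24 h (1.58-fold, edgeR adjusted p = 7.2e-06). With LPS at 4 h it lowered it to 155, 171 and 179 CPM, below each LPS library (-0.47 ± 0.09, edgeR adjusted p = 0.00011). The effects with and without LPS differed by -1.22 ± 0.15 (edgeR adjusted p = 5.1e-07). At 24 h under LPS it was again the higher with dexamethasone, at 55.3, 49.9 and 53.9 CPM (1.32-fold, edgeR adjusted p = 0.0022).

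Counting over the 10 genes, dexamethasone alone raised 6 and lowered 2 at 4 h, where 41.4% of all genes were called, and raised 6 and lowered 2 at 24 h, where 48.4% were called. The ones lowered were Irak2 and Irak1 at 4 h and Irak2 and Ticam1 at 24 h. Under LPS dexamethasone raised 5 and lowered 3 at 4 h (background 49.3%) and raised 3 and lowered 4 at 24 h (43.7%). Myd88, Ticam1 and Map3k8 were the 3 lowered at 4 h, and Myd88, Ticam2, Irak2 and Irak3 the 4 lowered at 24 h. Median changes of the 10 genes were 0.25, 0.24, 0.14 and -0.08 in this order, against -0.04, 0.00, 0.00 and 0.00 over all tested genes. The comparisons at one time share the untreated or LPS libraries.

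Differences between these effects were called for 8 of the 10 genes with LPS against without at 4 h (5 positive, 3 negative; background 38.7%) and for 5 at 24 h (38.2%). Between 24 h and 4 h the dexamethasone effect differed for 8 under LPS (38.8%) and for 5 without LPS (30.7%). That last count was 3 without untreated 4 h replicate 1. From 4 h to 24 h without treatment 5 rose and 2 fell (60.9%), the risers being Ticam2, Map3k8, Ticam1, Irak2 and Irak4 and the others Irak1 and Traf6.

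**Figure D4:**
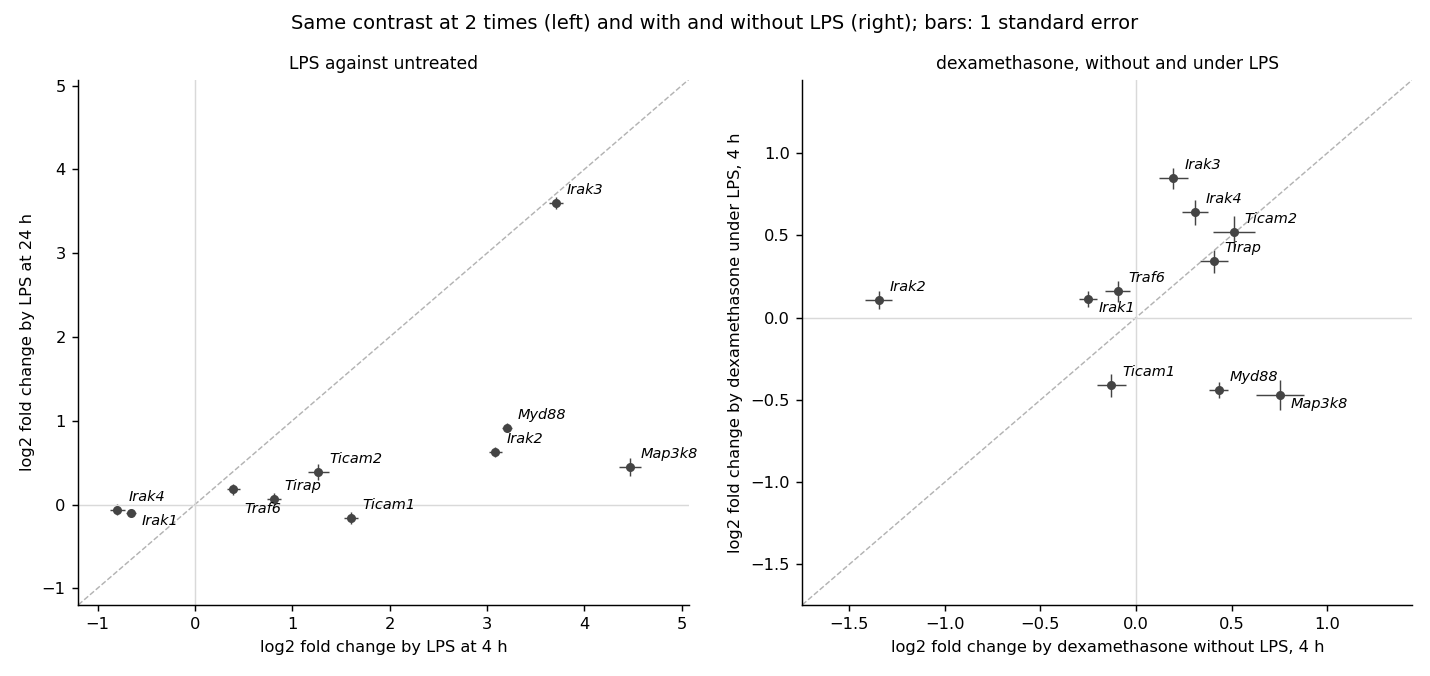
Left, log2 fold change by LPS at 4 h (x) and 24 h (y); right, log2 fold change by dexamethasone at 4 h without LPS (x) and under LPS (y), with bars of 1 standard error and a dashed line of equal values. Irak3 lies by the line on the left (3.71 and 3.61), and on the right Irak2 (-1.35 and 0.11), Myd88 (0.43 and -0.44) and Map3k8 (0.75 and -0.47) lie far from it.

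Upstream of the adaptors, the receptor complex changed with LPS at 4 h in 6 of its 7 genes, 4 higher and 2 lower, where 72.9% of all genes were called. Cd14, which hands LPS to the receptor, rose 7.91-fold to 3223 ± 223 CPM (edgeR adjusted p = 6.9e-32), and Ly96, the MD-2 subunit that binds LPS, rose 3.06-fold (4.7e-17). Tlr4 itself fell 2.36-fold, from 113 ± 3.19 to 47.7 ± 2.94 CPM (edgeR adjusted p = 2.9e-18). Under LPS at 4 h dexamethasone raised none of the 7 and lowered 4 (49.3% of all genes called), among them Tlr4, to 25.6 ± 1.43 CPM (-0.90 ± 0.08, edgeR adjusted p = 2.9e-12). At 24 h it lowered 5 and raised 2 (43.7% of all genes called), with Tlr4 at 81.6 ± 7.89 against 133 ± 4.88 CPM (-0.71 ± 0.07, edgeR adjusted p = 2.7e-11).

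Other Toll-like receptors and their chaperones (12 of 14 tested) were higher with LPS at 4 h in 7 and lower in 3, beside 72.9% called over all genes. Tlr2, a receptor of bacterial lipoproteins, rose 14.3-fold and Tlr3, a receptor of double-stranded RNA that signals through Ticam1 alone, 18.3-fold (edgeR adjusted p = 2e-28 and 1.5e-28). Under LPS at 4 h dexamethasone raised 2 and lowered 4 (49.3% over all genes), and Tlr3 went from 199 ± 5.98 to 105 ± 18.95 CPM (edgeR adjusted p = 9.5e-12). Without LPS at 4 h it raised 6 and lowered 4 (41.4% over all genes), with Tlr7, a receptor of single-stranded RNA that signals through Myd88, 3.71-fold higher at 455 ± 12.5 CPM (edgeR adjusted p = 1.1e-20). Of the interleukin 1 family receptors, which also use Myd88 (6 of 7 tested), LPS at 4 h raised 3 and lowered 1 (72.9% over all genes), with Il1rap 3.52-fold higher (edgeR adjusted p = 3.1e-17). The decoy receptor Il1r2 was 17.95 ± 3.41 CPM with both agents and 0.349 ± 0.120 CPM with LPS at 24 h (log2 change 5.68 ± 0.37, edgeR adjusted p = 1.2e-14).

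Downstream of Traf6, the list of kinases, ubiquitin enzymes and interferon regulatory factors had 15 of 22 genes higher and 5 lower with LPS at 4 h, beside 72.9% called over all genes. Peli1, a ubiquitin ligase that modifies Irak kinases, rose 23.1-fold to 947 ± 65.6 CPM (edgeR adjusted p = 1.6e-35), and its relative Peli2 fell 3.94-fold (1.5e-17). Dexamethasone moved the same pair apart without LPS at 4 h, with Peli2 2.87-fold higher and Peli1 1.57-fold lower (edgeR adjusted p = 2.5e-17 and 6.8e-10). Under LPS at 4 h dexamethasone raised 8 and lowered 7 of the 22 (49.3% over all genes), and Irf5, which acts downstream of Myd88, went from 541 ± 49.7 to 280 ± 17.6 CPM (edgeR adjusted p = 5.1e-16).

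Of the 8 partners and targets of Map3k8, dexamethasone under LPS at 4 h lowered 7, with a median of -0.47 on the log2 scale against 0.00 over all genes, at a background of 49.3% called. At 24 h under LPS it lowered 3 and the other 5 were not called (median -0.06, background 43.7%). LPS alone at 4 h raised 5 and lowered 2 (background 72.9%). Dexamethasone under LPS at 4 h took Dusp6 from 10.1 ± 1.05 to 3.34 ± 0.307 CPM (-1.58 ± 0.16, edgeR adjusted p = 3.1e-10). Dusp6 is a phosphatase of ERK whose transcription follows ERK activity. In the same comparison Map2k4, a MAP kinase kinase of the JNK branch, went from 307 ± 2.21 to 167 ± 5.02 CPM (-0.88 ± 0.05, edgeR adjusted p = 9.5e-17). LPS alone at 4 h raised Nfkb1 9.32-fold and lowered Dusp6 5.99-fold (edgeR adjusted p = 1.7e-33 and 8.5e-21).

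The brakes on the pathway other than Irak3 had 12 of 18 genes higher and 4 lower with LPS at 4 h, and 12 higher and 3 lower at 24 h, beside 72.9% and 60.4% called over all genes. Tnfaip3, the A20 protein that removes ubiquitin chains, rose 120-fold to 3314 ± 169 CPM at 4 h and was 4.62-fold higher at 24 h (edgeR adjusted p = 5.4e-25 and 1e-15). Under LPS dexamethasone raised 6 and lowered 8 at 4 h and raised and lowered 6 each at 24 h (49.3% and 43.7% over all genes). At 4 h Socs1, a suppressor of cytokine signalling, fell from 227 ± 24.7 to 74.0 ± 9.48 CPM (edgeR adjusted p = 1.1e-13), while Inpp5d, the lipid phosphatase SHIP1, rose from 24.6 ± 1.14 to 47.5 ± 2.26 CPM (7.8e-15). At 24 h Tnfaip3 was 2.54-fold higher with dexamethasone, at 344 ± 13.99 CPM (edgeR adjusted p = 7.2e-12).

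Over the 8 group means of log2 CPM, Irak3, Irak2 and Map3k8 had the widest ranges of the 10 genes (4.56, 4.54 and 4.50). Among 9462 genes the patterns most like Irak3, by Pearson correlation over those 8 means, were Sod2 (0.993), the mitochondrial superoxide dismutase, then Thap1 (0.992) and Surf4 (0.992). Thap1 and Surf4 moved far less, with ranges of 0.67 and 1.66 against 5.48 for Sod2. For Irak2 they were Gadd45b (0.986), Ifnar2 (0.985) and Ifi203 (0.984), and for Map3k8 Notch2 (0.985), Ppm1k (0.985) and Znrf1 (0.980). With 8 points dominated by the LPS groups, many genes reach such values.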

How the data were processed

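RNA-seq of 24 libraries was analysed from a gene table that the authors deposited. Its values are whole-number counts per gene, not scaled, made per the file headers with featureCounts 2.0.0 on read pairs, without strand, over exons of GENCODE M29, and with reads that overlap several genes left out by that tool's default. The submitters' processing notes name STAR, with no version, and the builds GRCm38 and mm10, whereas the deposited positions follow GENCODE M29 (GRCm39); the build of the alignment was not settled here. The deposited exon length per gene (another number in the table, per the file headers) served for levels per kilobase. Symbols came from GENCODE M21 by identifier for 52081 of 55357 genes, and the 3276 without one held 0.201 to 0.457% of the counts of a library.

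From these counts, 14985 genes passed filterByExpr and were fitted in 1 model of 8 group means over all 24 libraries in edgeR 4.0.16 (R 4.3.3), with TMM factors, 16 residual degrees of freedom and robust dispersions (biological coefficient of variation 6.29%). Two-sided F tests of 12 contrasts (6 treatment comparisons, 1 of time, 5 differences of effects) were adjusted by Benjamini-Hochberg over all 14985 genes, with a threshold of 0.05. Errors of log2 changes are approximate, the absolute change over the square root of F. CPM were computed from the counts with effective library sizes (total times TMM factor). Chi-square per gene between replicates was 2.99 to 7.77, so no 2 libraries agreed within sampling noise. Replicate numbers were not used as pairs in the main fit, and the labels do not say whether they pair libraries. The step was tested on simulated data. Few genes changed there, so that test does not bear on the scaling with LPS at 4 h, where 72.9% of genes were called.

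Alternatives were other size factors, library size alone, DESeq2 1.42.0, limma-voom (limma 3.58.1), no filter, a filter of 5 CPM in 3 libraries, only the groups compared, the replicate block and each library left out. Named genes were all 10 and, from each pathway list and treatment comparison, up to 2 that rose most and 2 that fell most among called genes whose mean reached 5 CPM in either group, of which the text names a part. The values of 1 gene of these lists are not reported here. For the 3 genes with the widest range, the 3 most alike genes by Pearson correlation were named. The 10 genes and all lists were chosen with earlier results of these data known. Promoter windows of 300 bases came from RefSeq on GRCm38.p6, where the windows of 26994 genes were searched. Figures were drawn with matplotlib 3.10.9 in Python 3.11.15.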

Additional observations from a re-analysis of the deposited data

Results flagged for a closer look

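Each value here is a difference between 2 effects of the same contrast that passed the edgeR quasi-likelihood test with Benjamini-Hochberg adjustment, on the log2 scale, and no explanation was weighed. The LPS effect at 24 h minus that at 4 h was -2.29 for Myd88, -1.77 for Ticam1, -0.87 for Ticam2, -0.74 for Tirap, -2.46 for Irak2, -0.21 for Traf6 and -4.02 for Map3k8. It was 0.56 for Irak1 and 0.74 for Irak4, whose falls at 4 h were not called at 24 h. With scaling by library size alone both genes were called lower with LPS at 24 h.

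For the dexamethasone effect without LPS, 24 h minus 4 h, the values were -0.43 for Ticam1, -0.51 for Ticam2, 0.23 for Irak1, 0.26 for Irak2 and 0.49 for Traf6. The value of Ticam2 was -0.297 without untreated 4 h replicate 1, and its call was lost. Under LPS the same difference was 0.29 for Myd88, 0.94 for Ticam1, -0.85 for Ticam2, -0.55 for Irak2, -0.996 for Irak3, -0.42 for Irak4, -0.30 for Traf6 and 0.87 for Map3k8. With scaling by library size alone that of Myd88 was 0.101 and its call was lost (edgeR adjusted p = 0.2).

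The dexamethasone effect with LPS minus that without at 4 h was -0.87 for Myd88, -0.28 for Ticam1, 0.36 for Irak1, 1.45 for Irak2, 0.65 for Irak3, 0.33 for Irak4, 0.26 for Traf6 and -1.22 for Map3k8. The call of Ticam1 was lost in 9 of 32 alternatives, among them scaling by library size alone (-0.049, edgeR adjusted p = 0.75), and that of Traf6 among others with RLE size factors (0.055) and without untreated 4 h replicate 3 (0.074). At 24 h it was -0.41 for Myd88, 1.09 for Ticam1, 0.65 for Irak2, -0.37 for Irak3 and -0.53 for Traf6. Irak3 thus had a positive difference at 4 h and a negative one at 24 h, and Irak2 a positive one at both times.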

How the results depend on the processing

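Over the 10 genes and 12 comparisons, fits with 1 library left out kept the call in 2780 values, lost it in 82 and gained it in 18. None turned, where turned means a change of sign in a value called in the main or the other fit. Values called in neither fit count as kept even where the sign changed. An example is Ticam2 for dexamethasone with minus without LPS at 4 h (0.005, and -0.108 to 0.219 with 1 library left out). The other settings gave 908, 31 and 17, with 4 turned, all with scaling by library size alone: Traf6 in LPS against untreated at 4 h (-0.374) and 24 h (-0.017), and the difference of the LPS effect between the times of Traf6 (0.357) and Irak3 (0.467). That setting moved the median of all genes by -0.769 (LPS, 4 h), -0.200 (LPS, 24 h), 0.222 (dexamethasone under LPS, 4 h), 0.569 (LPS effect between times), -0.189 (dexamethasone under LPS between times) and 0.234 (dexamethasone with minus without LPS, 4 h). With it 2434 genes were called higher and 9779 lower for LPS at 4 h, against 5118 and 5812, and 3079 and 6279 at 24 h, against 4455 and 4591. For dexamethasone under LPS at 4 h it called 5974 and 2365, against 3581 and 3807. For the differences of effects it called 7692 and 2573 (LPS between times, against 4617 and 4568), 1937 and 4808 (dexamethasone under LPS between times, against 2846 and 2962) and 5279 and 1566 (dexamethasone with minus without LPS at 4 h, against 3122 and 2675).

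The count of the 10 genes called for the dexamethasone effect without LPS between the times was 5, and 3 with no filter and 3 to 5 with 1 library left out. Counts of the other 11 comparisons stayed within 1.5 times of the main count in every setting. Least firm were Traf6 for the LPS effect between times and Ticam1 for LPS at 24 h, each lost in 17 of 24 fits with 1 library left out, Irak3 for dexamethasone under LPS at 24 h, lost in 12, and Irak2 for the dexamethasone effect without LPS between times, lost in 11.

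Same-numbered libraries deviated from their group means with correlations of -0.0533 to 0.0392, so the numbers were not taken as pairs. Libraries that correlated best with their own number ran from 0 of 3 to 3 of 3 by comparison. With 3 libraries a group such values cannot exclude pairing. With the replicate block, the call of Ticam1 for LPS at 24 h (-0.164) and of Irak3 for dexamethasone under LPS at 24 h (-0.150) was lost, that of Ticam2 for dexamethasone with minus without LPS at 24 h (-0.335) was gained, and no other call of the 10 genes changed. With 3 libraries a group, differences of effects as large as -0.33 (Ticam2, dexamethasone with minus without LPS at 24 h, edgeR adjusted p = 0.051) missed the threshold.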
